A study of Mus musculus with 11 samples.

Results

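Colon cancer organoids made to overexpress SOX17 were compared here with the naive organoids they were derived from, over all expressed genes. The comparison uses 5 of the 11 RNA sequencing libraries of the series. All 5 come from mouse organoids of genotype AKP, and none had been transplanted into a mouse. The naive group holds 3 libraries with no construct. The SOX17OE group holds 2 libraries, each the only library of its line: a constitutive SOX17OE line and a dox-inducible SOX17OE line, both made by lentiviral transduction of the naive organoids. Both lines were treated as replicates of 1 group, although their constructs differ. The labels do not state whether doxycycline, the drug that switches on such a construct, was given to the inducible line, nor the species of the SOX17 insert. No empty-vector line is among the libraries analysed here, so transduction and SOX17 expression cannot be told apart. Nothing in the labels says that libraries came from separate cultures, so p-values measure the spread between these libraries. Among the naive libraries that spread may be technical, while in the SOX17OE group it includes the difference between the 2 lines.

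SOX17 is a transcription factor of the SoxF group with an HMG box, the domain by which SOX proteins bend DNA at short motifs. In the embryo it specifies definitive endoderm, the layer from which the gut epithelium forms, and it also acts in arterial endothelium. SOX17 can bind beta-catenin, the transcriptional effector of Wnt signalling, which is active throughout Apc-mutant tumours. Interferon gamma, a cytokine of T and NK cells, signals through the receptor chains IFNGR1 and IFNGR2, and the kinases JAK1 and JAK2, and induces the chemokine CXCL10 and the machinery that displays peptides on MHC class I.

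The libraries held 14109182, 22154456 and 20213591 counts for naive replicates 1 to 3, 17521173 for the constitutive line and 17364887 for the inducible line. Levels are given as CPM, counts scaled to library size, with the constitutive line before the inducible one and naive replicates in the order 1, 2 and 3, and changes as log2 fold changes of SOX17OE against naive with the standard error (SE). A gene is said to have risen or fallen where edgeR's quasi-likelihood test gave a Benjamini-Hochberg adjusted p under 0.05 over the 12317 genes tested. The first principal component held 69.2% of the variance and separated both lines from the naive libraries, while the second held 19.2% and separated the 2 lines from each other. Among the naive libraries, replicate 3 stood apart. It was the highest of the 3 naive libraries for 206 of the 270 genes that fell and the lowest for 324 of the 594 that rose. Over all 12317 genes tested it was the highest naive library for 5048 and the lowest for 5190. Its part in those calls was not tested beyond leaving it out, as given with each group of genes. The ribosomal RNA transcript Rn45s took 2.42% to 4.99% of counts in naive libraries, 6.39% in the constitutive line and 3.71% in the inducible line. These are bulk samples, in which fewer cells of a type and less RNA per cell cannot be told apart.

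Sox17 itself was nearly absent from naive organoids, where 3, 1 and 1 counts were found. Its level was 0.216, 0.044 and 0.048 CPM in the naive libraries, 73.9 CPM in the constitutive line and 4.81 CPM in the inducible line. Both lines lay above every naive library (log2 fold change 8.69 ± 1.52 (SE), adjusted p = 0.0369), and the constitutive line carried 1262 counts against 82 in the inducible line. Gene-level counts do not tell construct from endogenous transcripts. The adjusted p of Sox17 was 0.121, 0.278 and 0.137 with naive replicate 1, 2 or 3 left out, and under 0.05 without either line. The log2 fold change was 5.66 without the constitutive line and 9.60 without the inducible one. Among the 7 SOX factors tested, Sox13 also rose, with 54.8 and 19 CPM in the 2 lines against 6.11, 6.25 and 6.91 CPM in naive organoids (log2 fold change 2.52 ± 0.42 (SE), adjusted p = 0.027). Sox9, a factor of intestinal crypts, measured 33.2 and 26.4 CPM in the 2 lines against 45.9, 40.3 and 74.4 CPM in naive organoids (log2 -0.85, adjusted p = 0.104).

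Of the 12317 genes tested, 864 (7.01%) passed the threshold: 594 (4.82%) rose and 270 (2.19%) fell. Changes of at least 4-fold made up 241 of the rises and 67 of the falls. Both lines lay above all 3 naive libraries for 3215 genes (26.1%) and below all 3 for 2956 (24.0%). All 864 genes that passed were among these 6171 (50.1%), so non-overlap alone was common and the threshold picked a minority of it. The constitutive line was the farther of the 2 from the naive mean in 641 of the 864 genes, and the inducible line in 217, with 6 ties. For 1135 genes the 2 lines lay on opposite sides of all naive libraries. The median log2 fold change over all genes tested was 0.01. Counts for gene lists below are to be read beside these shares of all genes tested that rose, fell or did not overlap. The lists were chosen with earlier results of these data known, so such counts describe the lists and are not independent support. In each of 15 alternative analyses, every one of the 864 genes that could be tested kept its direction. Because both lines lay beyond all 3 naive libraries for all 864, leaving out a library could hardly reverse one. The number past the threshold varied from 73 to 2266 among the fits that kept both lines.

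**Figure D1:**
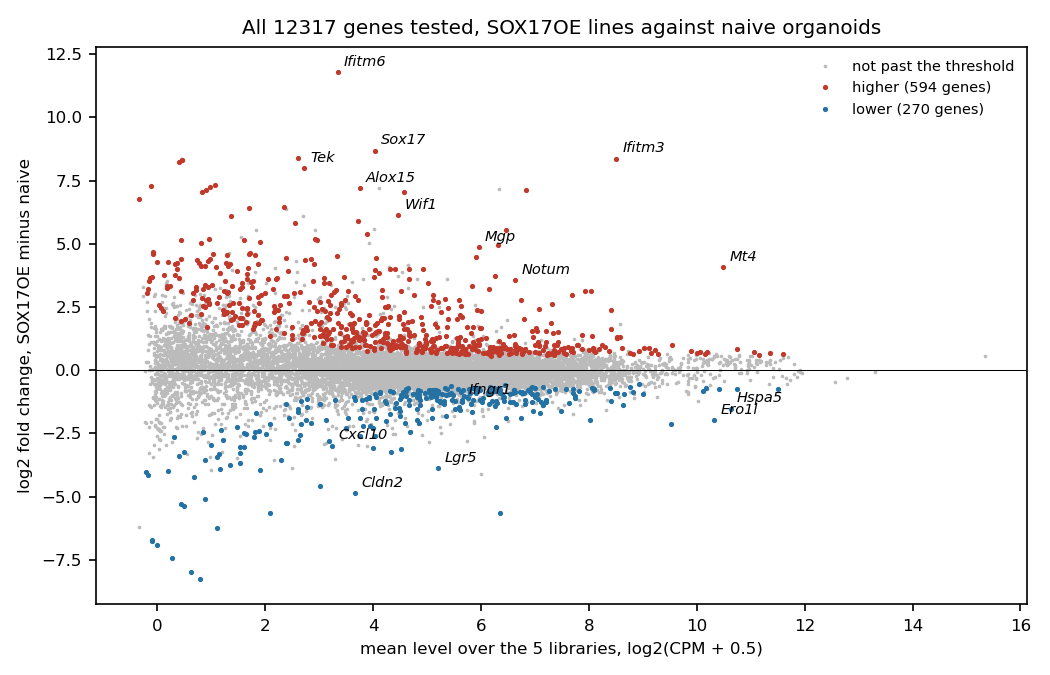
Log2 fold change of SOX17OE lines against naive organoids (vertical axis) by mean level over the 5 libraries as log2(CPM + 0.5) (horizontal axis), 1 point per gene tested. Red points are the 594 genes that rose, blue points the 270 that fell and grey points the genes that did not pass. Ifitm6, which had 0 counts in all naive libraries, lies at the top and its plotted value depends on the prior count of the fit.

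Wnt pathway genes were split. Several secreted and intracellular inhibitors of the pathway rose, while the stem cell receptor Lgr5 fell. Of 20 Wnt targets and feedback genes tested, 7 rose and 2 fell, with a median log2 fold change of 0.17. Over all genes tested, 4.82% rose and 2.19% fell. Notum, an enzyme that removes the lipid from Wnt ligands and so disables them, measured 22.4, 23 and 10.2 CPM in the naive libraries, 251 CPM in the constitutive line and 188 CPM in the inducible line (log2 fold change 3.57 ± 0.36 (SE), adjusted p = 0.0114). Nkd1, an inhibitor that acts on Dishevelled inside the cell, measured 54.2, 62.7 and 29.1 CPM in the naive libraries, 289 CPM in the constitutive line and 233 CPM in the inducible line (log2 fold change 2.42 ± 0.31 (SE), adjusted p = 0.0164). The groups did not overlap for either gene. Wif1, a secreted factor that binds Wnt ligands, went from 0.575, 0.792 and 0.816 CPM in naive organoids to 90.3 CPM (constitutive) and 15.6 CPM (inducible) (log2 fold change 6.15 ± 0.81 (SE), adjusted p = 0.0206). Dkk2, a ligand of the Wnt co-receptors LRP5 and LRP6, was the only one of the 7 to be higher in the inducible than in the constitutive line, with 39.4 and 53.2 CPM in the 2 lines against 13.1, 12.5 and 10.5 CPM in naive organoids (log2 fold change 1.95 ± 0.20 (SE), adjusted p = 0.00829). Apcdd1, a membrane-bound Wnt inhibitor, measured 168 and 79.2 CPM in the 2 lines against 27.9, 30.7 and 13.6 CPM in naive organoids (log2 2.36, adjusted p = 0.0384). Prox1, a homeobox factor known as a beta-catenin target in colon tumours, measured 23.9 and 11.8 CPM in the 2 lines against 1.87, 1.94 and 0.528 CPM in naive organoids (log2 3.64, adjusted p = 0.0226), and the matrix protease Mmp7 measured 24.1 and 14.6 CPM in the 2 lines against 7.04, 7.61 and 5.66 CPM in naive organoids (log2 1.52, adjusted p = 0.0282). For Notum, Nkd1, Dkk2, Apcdd1, Prox1 and Mmp7, all of the 7 but Wif1, naive replicate 3 was the lowest library.

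Lgr5, the R-spondin receptor that marks crypt stem cells, was 51.2, 71.9 and 50.6 CPM in the naive libraries, 1.58 CPM in the constitutive line and 6.34 CPM in the inducible line (log2 fold change -3.87 ± 0.58 (SE), adjusted p = 0.0258). The naive values lay above both lines by a wide margin. Ephb2, a receptor tyrosine kinase of the crypt base, fell from 159, 193 and 219.8 CPM in naive organoids to 68.7 CPM (constitutive) and 91.7 CPM (inducible) (log2 fold change -1.25 ± 0.21 (SE), adjusted p = 0.0237), and the hyaluronan receptor Cd44 fell from 152, 131 and 173 CPM in naive organoids to 93.8 CPM (constitutive) and 90.4 CPM (inducible) (log2 fold change -0.72 ± 0.17 (SE), adjusted p = 0.0472). They were the only 3 of 16 intestinal stem cell markers to pass, beside 2.19% of all genes tested that fell, and no marker of that list rose. Other direct targets of the pathway did not pass. Axin2, the scaffold that is the standard readout of beta-catenin activity, measured 197, 253 and 253 CPM in the naive libraries, 250.2 CPM in the constitutive line and 198 CPM in the inducible line, with both lines inside the naive range (log2 -0.07, adjusted p = 0.828). Ascl2, the crypt stem cell factor, measured 48 and 66.7 CPM in the 2 lines against 86, 91.2 and 52.5 CPM in naive organoids (log2 -0.42, adjusted p = 0.337). Myc lay below all naive libraries in both lines at 99.7 and 108 CPM in the 2 lines against 156, 164 and 223 CPM in naive organoids, with an adjusted p of 0.0527. Of the 10 named Wnt and stem cell genes that passed, 1, 3 and 4 still passed with naive replicate 1, 2 or 3 left out. Without the constitutive line 6 passed, and without the inducible line 9, with adjusted p values of up to 0.162 over these fits. Dkk2 passed in each of the 5 fits. The number of these fold changes that moved by over 1.5 times was 4 without the constitutive line and 2 without the inducible line.

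The interferon pathway showed a lower level of the receptor chain Ifngr1 and, at the same time, higher levels of many induced genes, chiefly in the constitutive line. Ifngr1, the ligand-binding chain of the interferon gamma receptor, measured 58.9, 61.5 and 72.5 CPM in the naive libraries, 26.1 CPM in the constitutive line and 29.9 CPM in the inducible line (log2 fold change -1.20 ± 0.17 (SE), adjusted p = 0.0164). All 3 naive libraries lay above both lines, and both lines were close to each other. Without naive replicate 1 or 3 the adjusted p of Ifngr1 was 0.0555 and 0.0509, with log2 fold changes of -1.26 and -1.10. Its partner chain Ifngr2 measured 132 and 77.2 CPM in the 2 lines against 67, 65 and 76.4 CPM in naive organoids. Both lines lay above all naive libraries, the inducible line narrowly, but Ifngr2 did not pass (log2 0.59, adjusted p = 0.14). Of 21 receptor and JAK-STAT genes tested, Ifngr1 was the only one to fall, beside 2.19% of all genes tested that fell and 4.82% that rose. Usp18, a protease that removes ISG15 and dampens type I interferon signalling, was the only one to rise, from 0.647, 0.748 and 0.816 CPM in naive organoids to 28 CPM (constitutive) and 3.23 CPM (inducible) (log2 fold change 4.38 ± 0.89 (SE), adjusted p = 0.0447). Interferon regulatory factors did not pass. Irf9, the DNA-binding subunit of the type I interferon complex, measured 76.3 and 13.6 CPM in the 2 lines against 7.18, 9.81 and 10.1 CPM in naive organoids (log2 2.31, adjusted p = 0.0836), and Irf1 measured 45.4 and 39.3 CPM in the 2 lines against 33.8, 32.4 and 30.01 CPM in naive organoids (log2 0.40, adjusted p = 0.14).

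Of 29 interferon induced genes tested, 8 rose and 1 fell, with a median log2 fold change of 2.07 against 0.01 over all genes. Over all genes tested, 4.82% rose and 2.19% fell. Both lines lay above all naive libraries for 17 of the 29, beside 26.1% of all genes tested. The constitutive line did so for 26, and the inducible line lay above for 17 and below for 8. Over all 12317 genes tested these counts for single lines were 4781, 4608 and 4354. Ifitm3 and Ifitm1, whose membrane proteins block virus entry, had the largest fold changes of the list. Ifitm3 measured 3.59, 3.92 and 0.72 CPM in the naive libraries, 1731 CPM in the constitutive line and 71.6 CPM in the inducible line (log2 fold change 8.37 ± 1.54 (SE), adjusted p = 0.0412). Ifitm1 measured 531 and 27.3 CPM in the 2 lines against 1.94, 3.56 and 0.336 CPM in naive organoids (log2 7.14, adjusted p = 0.0497), and Ifitm2 measured 776 and 339 CPM in the 2 lines against 63.2, 79.5 and 46.1 CPM in naive organoids (log2 fold change 3.15 ± 0.39 (SE), adjusted p = 0.0164). Ifitm6 is not a member of that list. It had no counts in any naive library and measured 38.2 and 9.98 CPM in the 2 lines. Against a floor of 3 counts per naive library, that was at least 233-fold higher in the constitutive line and at least 60.9-fold higher in the inducible line. These 4 genes are close paralogs and could share reads. Mx1, a GTPase with antiviral activity, went from 0.216, 0.352 and 0.768 CPM in naive organoids to 27.3 CPM (constitutive) and 6.63 CPM (inducible) (log2 fold change 5.19 ± 0.74 (SE), adjusted p = 0.0209), and Bst2, which tethers budding virus, from 30.7, 31.8 and 25.8 CPM in naive organoids to 81.1 CPM (constitutive) and 61.5 CPM (inducible) (log2 fold change 1.28 ± 0.18 (SE), adjusted p = 0.0164). Gbp4 (log2 3.03, adjusted p = 0.0445), Irgm2 (log2 2.52, adjusted p = 0.0448) and Parp9 (log2 0.90, adjusted p = 0.0403) also rose. Other members were high in the constitutive line alone and did not pass. Oas1a, which senses double-stranded RNA, measured 58.4 and 2.35 CPM in the 2 lines against 2.16, 2.51 and 2.69 CPM in naive organoids (log2 3.62, adjusted p = 0.108), Irf7 measured 27 and 2.76 CPM in the 2 lines against 2.66, 3.17 and 4.75 CPM in naive organoids (log2 2.07, adjusted p = 0.167), and Isg15 measured 15.1 and 2.05 CPM in the 2 lines against 2.01, 3.34 and 6.1 CPM in naive organoids (log2 1.16, adjusted p = 0.394).

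Cxcl10, which draws T and NK cells, was the member of the list that fell. Its level was 10.3, 12.1 and 18.7 CPM in the naive libraries, 2.05 CPM in the constitutive line and 1.41 CPM in the inducible line (log2 fold change -2.98 ± 0.38 (SE), adjusted p = 0.0134). Every naive library lay above both lines. Cxcl10 passed with each of the 5 libraries left out in turn. The promoters of Ifitm3 and Cxcl10 are shown because both hold the letters of the interferon-stimulated response element (GAAA, any 2 bases, then GAAA, searched on both strands, in capitals) while their transcripts changed in opposite directions. Each spans 250 bases before to 50 after the RefSeq transcription start, 5′ to 3′ on the gene's strand in GRCm38.p6, at chr7:141010695-141010994 (minus strand) for Ifitm3 and chr5:92348840-92349139 (minus strand) for Cxcl10.
Ifitm3: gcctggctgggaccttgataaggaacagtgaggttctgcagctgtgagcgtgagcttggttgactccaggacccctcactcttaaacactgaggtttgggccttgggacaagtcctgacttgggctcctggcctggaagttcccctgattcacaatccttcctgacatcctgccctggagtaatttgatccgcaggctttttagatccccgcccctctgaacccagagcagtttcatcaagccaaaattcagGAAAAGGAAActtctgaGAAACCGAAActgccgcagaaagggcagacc
Cxcl10: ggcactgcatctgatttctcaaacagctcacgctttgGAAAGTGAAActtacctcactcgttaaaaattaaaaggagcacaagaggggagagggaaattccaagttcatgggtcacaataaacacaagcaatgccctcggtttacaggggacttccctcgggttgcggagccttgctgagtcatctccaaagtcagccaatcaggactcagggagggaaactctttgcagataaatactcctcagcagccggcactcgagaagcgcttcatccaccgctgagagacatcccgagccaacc
The element occurred at 2 places in the Ifitm3 window and 1 in the Cxcl10 window. It was found in 4.43% of the 406 promoters of genes that rose, 3.05% of the 197 of genes that fell, 2.86% of the 8784 promoters of all genes tested and 3.49% of the 27025 promoters in the table. A match of letters is not evidence of binding. The threshold was passed by 12 named interferon pathway genes. With naive replicate 1, 2 or 3 left out, 1, 4 and 1 of them passed. The number was 9 without the constitutive line and 12 without the inducible line, and the highest adjusted p was 0.316. Cxcl10 passed in each of the 5 fits. Fold changes moved by over 1.5 times for 1 without naive replicate 2, 1 without naive replicate 3, 8 without the constitutive line and 6 without the inducible line.

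**Figure D2:**
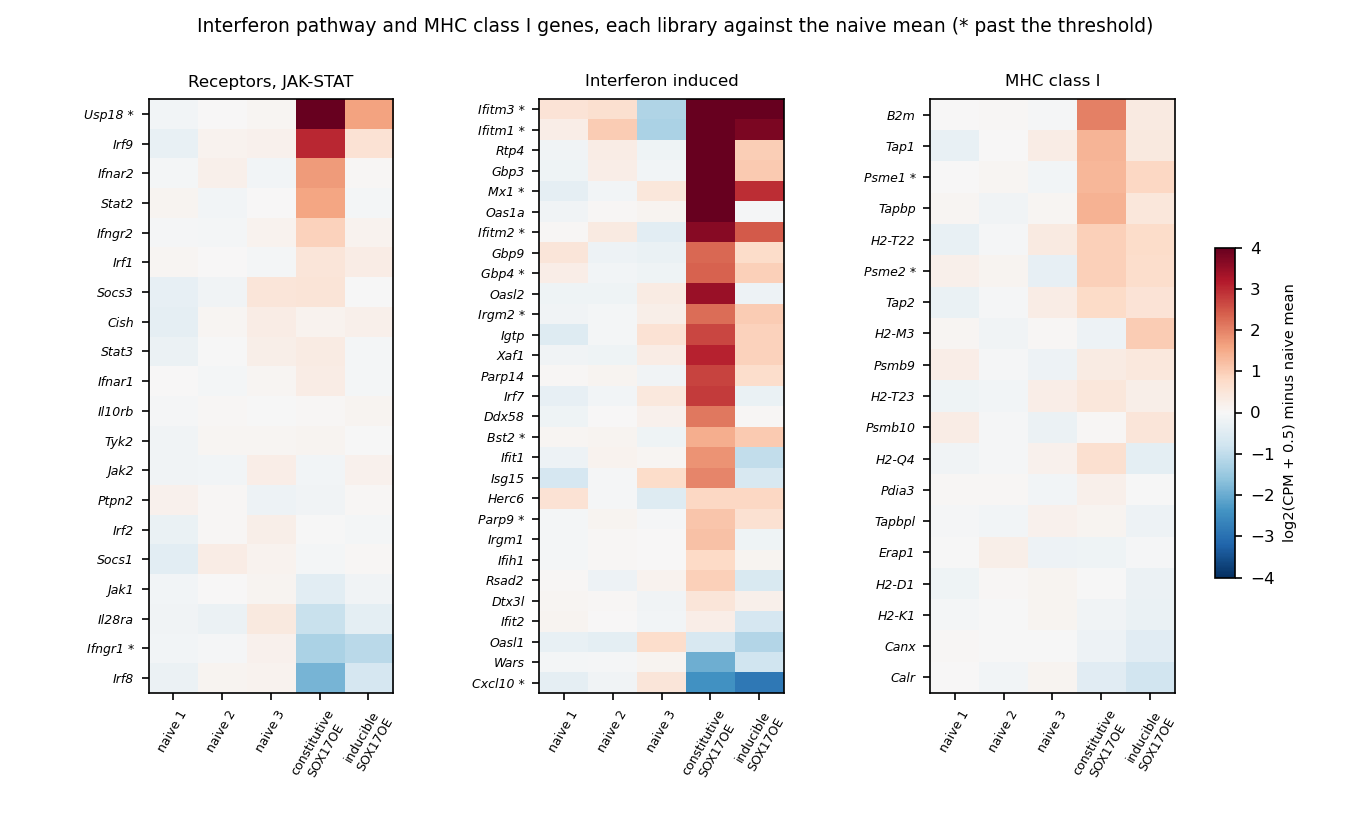
Each library's log2(CPM + 0.5) minus the mean of the 3 naive libraries, for tested genes of the receptor and JAK-STAT (1 gene not drawn), interferon induced and MHC class I lists. Columns are the 5 libraries, rows are genes sorted by fold change, stars mark genes past the threshold, and the colour scale ends at 4 and -4, so larger differences show the end colour. The constitutive line is above all naive libraries for 26 of the 29 interferon induced genes and the inducible line for 17. Over all 12317 genes tested these counts are 4781 and 4608.

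**Figure D3:**
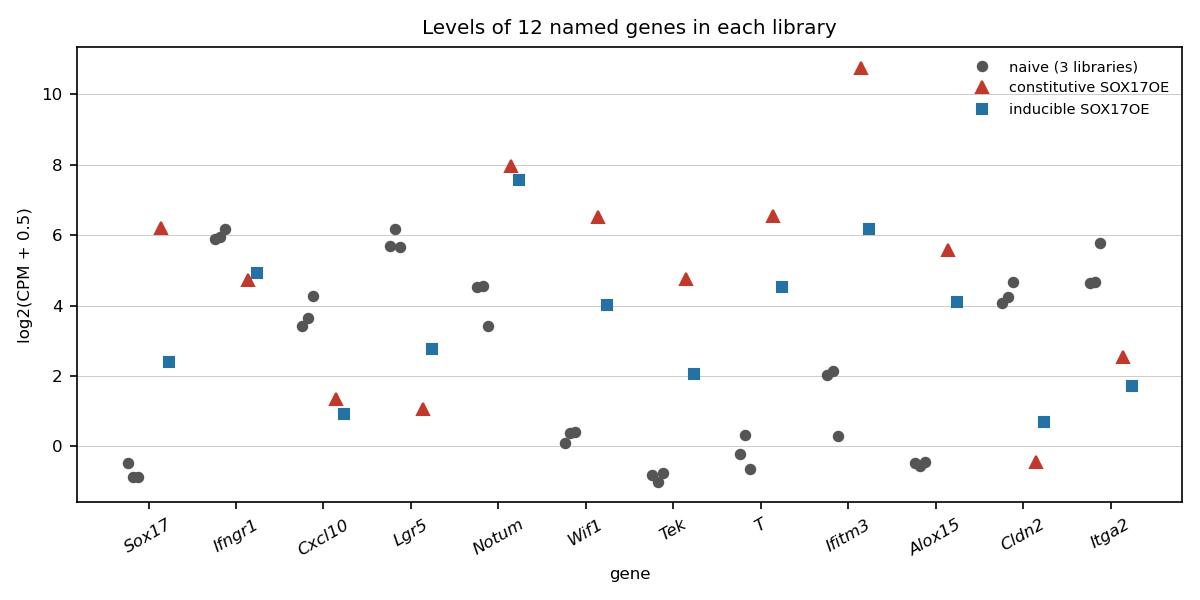
Levels of 12 named genes as log2(CPM + 0.5) in each of the 3 naive libraries (grey circles), the constitutive line (red triangles) and the inducible line (blue squares). Sox17, Notum, Wif1, Tek, T, Ifitm3 and Alox15 lie above all naive libraries in both lines, and Ifngr1, Cxcl10, Lgr5, Cldn2 and Itga2 lie below them.

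Of 19 MHC class I presentation genes, the proteasome activator subunits Psme1 (98.3 and 69 CPM in the 2 lines against 39.8, 41.2 and 36.3 CPM in naive organoids, log2 1.10, adjusted p = 0.0245) and Psme2 (136 and 114 CPM in the 2 lines against 80.03, 75.9 and 55.8 CPM in naive organoids, log2 0.83, adjusted p = 0.0476) rose and none fell, beside 4.82% of all genes tested that rose and 2.19% that fell. B2m, the light chain of every class I molecule, measured 33.8, 34.4 and 32.5 CPM in the naive libraries, 137 CPM in the constitutive line and 43.5 CPM in the inducible line, with both lines above the naive range, the constitutive line by the wider margin (log2 1.43, adjusted p = 0.0958). The classical heavy chains H2-K1 (358 and 331 CPM in the 2 lines against 374, 393 and 425 CPM in naive organoids, log2 -0.21, adjusted p = 0.348) and H2-D1 (303 and 257 CPM in the 2 lines against 271, 317 and 328 CPM in naive organoids, log2 -0.13, adjusted p = 0.617) did not pass. Tap1, a subunit of the peptide transporter, measured 5.68 and 2.64 CPM in the 2 lines against 1.44, 1.89 and 2.45 CPM in naive organoids (log2 1.10, adjusted p = 0.148). None of the 3 MHC class II genes tested passed.

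Some immune ligands changed. Cd274, which encodes PD-L1, was 1.23 and 1.23 CPM in the 2 lines against 0.862, 1.28 and 1.49 CPM in naive organoids, inside the naive range (log2 0.01, adjusted p = 0.987). Of 14 immune regulatory ligands, Vtcn1, a B7 family inhibitor of T cells, rose from 1.51, 1.41 and 2.21 CPM in naive organoids to 29.5 CPM (constitutive) and 8.1 CPM (inducible) (log2 fold change 3.45 ± 0.55 (SE), adjusted p = 0.0245). Arg1, an arginine-degrading enzyme, rose from 1 count in all naive libraries to 6.44 and 1.53 CPM in the 2 lines against 0.0718, 0 and 0 CPM in naive organoids, a ratio of pooled rates of 229 with an exact 95% counting interval of 40.4 to 9116. Nt5e, which makes adenosine, fell from 0.718, 1.14 and 1.49 CPM in naive organoids to 0.176 CPM (constitutive) and 0.176 CPM (inducible) (log2 -2.64, adjusted p = 0.0472). Pvr, the ligand of the NK receptors DNAM-1 and TIGIT, fell from 78.1, 89.4 and 135 CPM in naive organoids to 45.8 CPM (constitutive) and 30.3 CPM (inducible) (log2 -1.41, adjusted p = 0.039). Among 18 chemokines and cytokines, Cxcl10 fell and the neutrophil chemokine Cxcl5 rose, from 0.862, 1.14 and 0.768 CPM in naive organoids to 4.22 CPM (constitutive) and 3.99 CPM (inducible) (log2 2.14, adjusted p = 0.0257). Cxcl5 was also the only one of 19 NF-kappaB targets to pass. Shares over all genes tested, to be set beside these 3 lists, were 4.82% that rose and 2.19% that fell. Leaving out naive replicate 1, 2 or 3 left 0, 1 and 0 of the 7 named presentation, ligand and chemokine genes (Cxcl10 aside) past the threshold. Leaving out the constitutive line left 4, and leaving out the inducible line left 6. Adjusted p values reached 0.131. A move of the fold change by over 1.5 times was seen in 1 without naive replicate 1, 2 without the constitutive line and 2 without the inducible line.

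Genes usually read in endothelium and mesoderm appeared in both lines. Tek, the angiopoietin receptor of endothelial cells, had 3 counts in all naive libraries together and measured 26.5 and 3.64 CPM in the 2 lines against 0.0718, 0 and 0.096 CPM in naive organoids. The ratio of pooled rates was 289, with an exact 95% counting interval of 98.2 to 1404. Rhoj, a small GTPase of endothelial cells, measured 25.9 and 2.0 CPM in the 2 lines against 0, 0.088 and 0 CPM in naive organoids, the latter from 2 counts, a ratio of 401 (exact 95% counting interval 110 to 3321). Cdh5, the endothelial cadherin, had no naive count and 3.34 and 0.763 CPM in the 2 lines against 0, 0 and 0 CPM in naive organoids, at least 20.4-fold higher in the constitutive line and at least 4.66-fold higher in the inducible line against the floor of 3 counts per naive library. These intervals cover counting error only. Tek, Rhoj and Cdh5 were the only ones of 7 tested endothelial markers to pass, beside 4.82% of all genes tested that rose. Both lines lay above all naive libraries for 4 of the 7, beside 26.1% of all genes tested. The summed level of the 20 endothelial markers matched was 10.8 to 14.5 CPM in naive libraries, 78.8 CPM in the constitutive line and 20.6 CPM in the inducible line. Tek and Rhoj were the largest parts of the constitutive sum. In the inducible line the largest part was Egfl7, at 7.79 and 9.33 CPM in the 2 lines against 6.39, 7.88 and 7.63 CPM in naive organoids. Cldn5, Emcn and Robo4, also endothelial markers, had no count in any of the 5 libraries, Pecam1 measured 0.117 and 0.0587 CPM in the 2 lines against 0.216, 0 and 0 CPM in naive organoids, and Kdr measured 0.0586 and 0 CPM in the 2 lines against 0, 0 and 0 CPM in naive organoids. T (brachyury), a T-box factor of the primitive streak and early mesoderm, went from 0.359, 0.748 and 0.144 CPM in naive organoids to 92.6 CPM (constitutive) and 22.7 CPM (inducible) (log2 fold change 7.04 ± 0.82 (SE), adjusted p = 0.0164).

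The Tek promoter is shown because Tek rose in both lines and holds the core SOX motif (ACAAT on either strand, capitals). The window lies at chr4:94739039-94739338 on the plus strand of GRCm38.p6 and spans 250 bases before to 50 after the RefSeq start.
Tek: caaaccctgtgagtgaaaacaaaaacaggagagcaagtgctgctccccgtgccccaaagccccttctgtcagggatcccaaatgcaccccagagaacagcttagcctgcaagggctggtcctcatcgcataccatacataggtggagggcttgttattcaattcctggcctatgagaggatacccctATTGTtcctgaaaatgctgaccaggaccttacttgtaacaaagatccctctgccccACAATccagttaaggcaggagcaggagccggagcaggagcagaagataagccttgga
The motif occurred at 2 places, once as ATTGT, its reverse complement. It also occurred at 1 place in each of the Ifitm3 and Cxcl10 windows above, not in capitals there, although Cxcl10 fell. The core motif was found in 26.4% of the 406 promoters of genes that rose, 17.8% of the 197 of genes that fell, 20.0% of those of all genes tested and 31.5% of all promoters in the table. ACAATG, which contains that core, was found in 10.3%, 6.60%, 7.08% and 12.8% of the same sets. The letters CTTTGA, recognised by TCF/LEF factors, the DNA-binding partners of beta-catenin, were found in 15.3%, 10.2%, 12.1% and 16.2%. These shares describe the windows, were given no test, and say nothing about where SOX17 bound.

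Markers of other cell types were summed to see what else the cultures could hold. The summed level of 15 fibroblast and muscle markers was 7.97 to 14.1 CPM in naive libraries, 68.2 CPM in the constitutive line and 21.5 CPM in the inducible line, of which the intermediate filament gene Vim made up 60.1 and 20.3 CPM in the 2 lines against 8.76, 12.6 and 6.05 CPM in naive organoids (log2 2.13, adjusted p = 0.0594). Des had no count. The 10 lymphoid markers summed to 0.790 to 1.23 CPM in naive libraries, 0.586 CPM in the constitutive line and 0.646 CPM in the inducible line, with Cd4, Klrb1c and Nkg7 at 0. The 17 myeloid markers summed to 162 to 233 CPM in naive libraries, 58.1 CPM in the constitutive line and 673 CPM in the inducible line. The mast cell protease Cma1 made up most of that sum in every library but the constitutive line, at 15.3 and 630.1 CPM in the 2 lines against 147, 179 and 83.3 CPM in naive organoids, while C1qa, C1qb, Tyrobp and Mcpt1 were at 0. None of the tested fibroblast, myeloid or lymphoid markers passed. The 14 epithelial markers summed to 12183 to 14559 CPM in naive libraries, 7385 CPM in the constitutive line and 9961 CPM in the inducible line. In that list 4 fell (Cdh1, Krt8, Cldn3 and Elf3) and Epcam measured 1022 and 1093 CPM in the 2 lines against 987, 978 and 1042 CPM in naive organoids (log2 0.08, adjusted p = 0.705).

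Gata6 and Hnf4g fell, and both belong to the endoderm and foregut list and to the intestinal identity list. Of 13 endoderm and foregut factors tested, no others fell and only Prox1 rose. Over all genes tested, 2.19% fell and 4.82% rose. Gata6, a zinc finger factor of gut endoderm, measured 16.3, 21.6 and 26.6 CPM in the naive libraries, 2.46 CPM in the constitutive line and 6.93 CPM in the inducible line (log2 fold change -2.20 ± 0.46 (SE), adjusted p = 0.0412). Hnf4g, a nuclear receptor of enterocytes, measured 0.0586 and 0.0587 CPM in the 2 lines against 1.72, 2.24 and 2.64 CPM in naive organoids. Its ratio of pooled rates was 0.0259 (exact 95% counting interval 0.00311 to 0.0955), from 2 counts in both lines together. Its relative Hnf4a measured 28.1 and 134 CPM in the 2 lines against 208, 235 and 249.9 CPM in naive organoids and did not pass (log2 -1.51, adjusted p = 0.165). Of the 8 named SOX, endothelial, mesoderm and endoderm genes (Sox17, Sox13, Tek, Rhoj, Cdh5, T, Gata6 and Hnf4g) that passed, 1, 1 and 0 still passed with naive replicate 1, 2 or 3 left out. Without the constitutive line 7 passed, and without the inducible line 8, with adjusted p values of up to 0.356 over these fits. The number of these fold changes that moved by over 1.5 times was 1 without naive replicate 1, 3 without naive replicate 2, 1 without naive replicate 3, 5 without the constitutive line and 6 without the inducible line. Cdh5 was filtered out as too low without the constitutive line.

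Of 17 intestinal identity factors, Hnf4g, Gata6, Klf5 and Elf3 fell and Hoxb13 rose, beside 2.19% of all genes tested that fell and 4.82% that rose. Klf5, a factor of proliferating crypt cells, fell from 79.9, 93.6 and 126 CPM in naive organoids to 39.2 CPM (constitutive) and 46.3 CPM (inducible) (log2 fold change -1.23 ± 0.23 (SE), adjusted p = 0.0292). Elf3, an epithelial ETS factor, fell from 212, 241 and 309 CPM in naive organoids to 150.1 CPM (constitutive) and 123 CPM (inducible) (log2 -0.90, adjusted p = 0.0459). Hoxb13, the hindgut homeobox gene, rose from 161, 186 and 132 CPM in naive organoids to 324 CPM (constitutive) and 312 CPM (inducible) (log2 fold change 0.99 ± 0.17 (SE), adjusted p = 0.027). Cdx2, the master factor of intestinal epithelium, measured 34.9 and 103 CPM in the 2 lines against 99.9, 110.2 and 147 CPM in naive organoids, with the inducible line inside the naive range (log2 -0.79, adjusted p = 0.301). Naive replicate 3 was the highest naive library for 15 of these 17 genes. Among genes of mature cell types, Slc9a3, the apical sodium-proton exchanger, was the only one of 17 absorptive colonocyte genes to pass, with 17.2 and 7.16 CPM in the 2 lines against 1.72, 1.67 and 0.864 CPM in naive organoids (log2 fold change 3.10 ± 0.47 (SE), adjusted p = 0.019). Of 10 goblet cell genes, Fcgbp, a mucus protein (1.35 and 3.17 CPM in the 2 lines against 9.12, 8.18 and 9.27 CPM in naive organoids, log2 -1.97, adjusted p = 0.0354), and Sytl2, a vesicle-docking protein (1.23 and 0.704 CPM in the 2 lines against 6.03, 5.28 and 10.3 CPM in naive organoids, log2 -2.89, adjusted p = 0.0228), fell. Plcg2, a phospholipase of tuft cells, was the only one of 5 tuft cell genes to pass and rose from 2.37, 1.98 and 1.2 CPM in naive organoids to 36.9 CPM (constitutive) and 10.2 CPM (inducible) (log2 3.68, adjusted p = 0.0252). Of 3 enteroendocrine genes, Pax6, an islet and enteroendocrine factor, fell from 0.718, 0.616 and 0.816 CPM in naive organoids to 0 CPM (constitutive) and 0 CPM (inducible), at least 4.08-fold lower against 3 counts per line. Of 6 gastric and foregut epithelium genes, Vsig1, a gastric junction protein, fell from 3.38, 3.17 and 4.75 CPM in naive organoids to 0.176 CPM (constitutive) and 0.411 CPM (inducible) (log2 fold change -3.65 ± 0.53 (SE), adjusted p = 0.0165), and Ctsl, a lysosomal protease, rose from 171, 176 and 189 CPM in naive organoids to 335 CPM (constitutive) and 298 CPM (inducible) (log2 0.83, adjusted p = 0.0241). The threshold was passed by 10 named identity and cell type genes (Hnf4g and Gata6 aside). With naive replicate 1, 2 or 3 left out, 0, 4 and 0 of them passed. The number was 5 without the constitutive line and 9 without the inducible line, and the highest adjusted p was 0.112. Fold changes moved by over 1.5 times for 2 without the constitutive line and 3 without the inducible line.

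Several cell junction genes fell, and some keratins of stratified epithelium rose. Of 27 junction genes, 4 fell, none rose, and both lines lay below all naive libraries for 14. Over all genes tested, 2.19% fell, 4.82% rose and 24.0% had both lines below. Naive replicate 3 was the highest naive library for 23 of the 27. Cldn2, the claudin that forms cation pores in leaky epithelia, measured 16.4, 18.4 and 24.7 CPM in the naive libraries, 0.234 CPM in the constitutive line and 1.12 CPM in the inducible line (log2 fold change -4.86 ± 0.56 (SE), adjusted p = 0.0118). Cldn15, a further pore-forming claudin, measured 0.234 and 0.704 CPM in the 2 lines against 3.3, 3.34 and 5.04 CPM in naive organoids (log2 -3.04, adjusted p = 0.0292), and Cldn3 measured 106 and 144 CPM in the 2 lines against 206, 270.0 and 341 CPM in naive organoids (log2 -1.12, adjusted p = 0.0439). Cdh1, the epithelial cadherin, fell from 419.6, 490.0 and 573 CPM in naive organoids to 258 CPM (constitutive) and 255 CPM (inducible) (log2 fold change -0.95 ± 0.17 (SE), adjusted p = 0.0284). Of 20 keratins and squamous genes, 4 rose and 1 fell. Krt15, a keratin of basal cells in stratified epithelium, measured 5.96, 5.02 and 2.69 CPM in the naive libraries, 339 CPM in the constitutive line and 85.5 CPM in the inducible line (log2 fold change 5.56 ± 0.67 (SE), adjusted p = 0.0164). Krt13, of non-cornified stratified epithelium, measured 228 and 49 CPM in the 2 lines against 5.6, 5.72 and 7.39 CPM in naive organoids (log2 fold change 4.47 ± 0.64 (SE), adjusted p = 0.0241). Dsg3, a desmosomal cadherin of squamous epithelium, measured 37.8 and 14.1 CPM in the 2 lines against 2.73, 3.04 and 5.42 CPM in naive organoids (log2 2.79, adjusted p = 0.0291). Sprr2a1, a cornified envelope gene that is also expressed in gut epithelium, went from 243, 227 and 230.0 CPM in naive organoids to 503 CPM (constitutive) and 634 CPM (inducible) (log2 fold change 1.28 ± 0.15 (SE), adjusted p = 0.0114). Krt8, the main keratin of simple epithelium, fell from 3474, 3152 and 3715 CPM in naive organoids to 1713 CPM (constitutive) and 2402 CPM (inducible) (log2 -0.74, adjusted p = 0.0499). Outside that list, Krt12, a keratin of corneal epithelium, rose from 0.144, 0.088 and 0.144 CPM in naive organoids to 19.8 CPM (constitutive) and 2.64 CPM (inducible) (log2 6.44, adjusted p = 0.0239). Leaving out naive replicate 1, 2 or 3 left 1, 2 and 1 of the 10 named junction and keratin genes past the threshold. Leaving out the constitutive line left 7, and leaving out the inducible line left 10. Adjusted p values reached 0.184. Sprr2a1 passed in each of the 5 fits. A move of the fold change by over 1.5 times was seen in 5 without the constitutive line and 5 without the inducible line.

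Matrix and adhesion genes moved in both directions. Of 28 matrix and EMT genes, 5 rose and 2 fell, beside 4.82% of all genes tested that rose and 2.19% that fell. Itga2, the collagen-binding integrin chain, fell from 24.7, 25.2 and 54 CPM in naive organoids to 5.27 CPM (constitutive) and 2.76 CPM (inducible) (log2 fold change -3.11 ± 0.50 (SE), adjusted p = 0.0266). Itga5, the chain of the fibronectin receptor, rose from 0.216, 0.132 and 0.096 CPM in naive organoids to 6.27 CPM (constitutive) and 0.939 CPM (inducible) (log2 4.60, adjusted p = 0.0318). Thbs1, which encodes thrombospondin, rose from 12.1, 15.8 and 11.3 CPM in naive organoids to 270.1 CPM (constitutive) and 72.8 CPM (inducible) (log2 fold change 3.71 ± 0.54 (SE), adjusted p = 0.0248), and the metalloproteinase inhibitors Timp1 (4.22 and 2.82 CPM in the 2 lines against 0.718, 0.968 and 0.48 CPM in naive organoids, log2 2.27, adjusted p = 0.0328) and Timp3 (3.86 and 2.76 CPM in the 2 lines against 0.862, 0.308 and 0.432 CPM in naive organoids, log2 2.67, adjusted p = 0.0313) rose at low levels. Of 26 TGF-beta and BMP response genes, Bambi, a decoy receptor that dampens TGF-beta signalling, rose from 37, 32.3 and 32.4 CPM in naive organoids to 131 CPM (constitutive) and 82.2 CPM (inducible) (log2 fold change 1.66 ± 0.21 (SE), adjusted p = 0.014). Msx2, a homeobox target of BMP signalling, rose from 0.575, 0.572 and 0.912 CPM in naive organoids to 6.09 CPM (constitutive) and 2.58 CPM (inducible) (log2 2.64, adjusted p = 0.0298), and none of the 26 fell. Of the 7 named matrix and TGF-beta genes that passed, 0, 2 and 1 still passed with naive replicate 1, 2 or 3 left out. Without the constitutive line 3 passed, and without the inducible line 7, with adjusted p values of up to 0.145 over these fits. The number of these fold changes that moved by over 1.5 times was 3 without the constitutive line and 2 without the inducible line.

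The receptor gene Egfr and the ligand gene Areg both fell in the fit of all 5 libraries. The adjusted p of Egfr was 0.0767, 0.0594 and 0.0753 when naive replicate 1, 2 or 3 was left out. That of Areg was 0.0652, 0.0141 and 0.0236. Egfr measured 19.97, 19 and 33.4 CPM in the naive libraries, 9.9 CPM in the constitutive line and 9.51 CPM in the inducible line (log2 fold change -1.32 ± 0.29 (SE), adjusted p = 0.0438). Areg, which encodes the EGFR ligand amphiregulin, measured 128, 109 and 216 CPM in the naive libraries, 40.1 CPM in the constitutive line and 40.3 CPM in the inducible line (log2 fold change -1.91 ± 0.31 (SE), adjusted p = 0.0234). No other of the 21 genes of the EGF receptor axis passed, and naive replicate 3 was the highest naive library for 19 of them. Ereg, a further ligand, measured 8.37 and 6.52 CPM in the 2 lines against 26.6, 25.9 and 79.5 CPM in naive organoids (log2 -2.56, adjusted p = 0.0597). In the Notch pathway the ligand Jag1 fell from 21.7, 22.2 and 37.3 CPM in naive organoids to 6.5 CPM (constitutive) and 9.57 CPM (inducible) (log2 fold change -1.75 ± 0.32 (SE), adjusted p = 0.0292), and Hes6, a helix-loop-helix gene, rose from 288, 276 and 157 CPM in naive organoids to 523 CPM (constitutive) and 668 CPM (inducible) (log2 fold change 1.31 ± 0.27 (SE), adjusted p = 0.0377), out of 16 genes tested. Of 24 fetal intestine and repair genes, Anxa1 and Ly6g6c rose and Areg fell, beside 4.82% of all genes tested that rose and 2.19% that fell. Anxa1, a phospholipid-binding protein, went from 1317, 1205 and 1395 CPM in naive organoids to 2234 CPM (constitutive) and 2443 CPM (inducible) (log2 fold change 0.84 ± 0.13 (SE), adjusted p = 0.0202), and Ly6g6c from 3.16, 3.3 and 3.79 CPM in naive organoids to 12.1 CPM (constitutive) and 8.28 CPM (inducible) (log2 1.57, adjusted p = 0.0276). Ly6a, which encodes Sca-1 and marks the repairing epithelium, was high in all libraries at 1515 and 1931 CPM in the 2 lines against 1340.0, 1269.6 and 1636 CPM in naive organoids (log2 0.28, adjusted p = 0.302). H19, an imprinted noncoding RNA, was the only one of 10 genes of the insulin-like growth factor axis to pass, from 0.216, 0.396 and 0.288 CPM in naive organoids to 2.87 CPM (constitutive) and 3.35 CPM (inducible) (log2 fold change 3.31 ± 0.44 (SE), adjusted p = 0.0155). Of 20 p53 targets, Gadd45a fell from 60.7, 53.6 and 85.7 CPM in naive organoids to 30.3 CPM (constitutive) and 34.1 CPM (inducible) (log2 -1.05, adjusted p = 0.0431). None of the 15 YAP/TAZ targets and none of the 21 immediate early genes passed, and naive replicate 3 was the highest naive library for 13 and 21 of them. Both lines lay below all naive libraries for 6 and 10, beside 24.0% of all genes tested. The immediate early gene Fos measured 17.3 and 21.3 CPM in the 2 lines against 41.7, 46.4 and 90.7 CPM in naive organoids (log2 -1.63, adjusted p = 0.0503). The threshold was passed by 8 named growth factor, Notch, repair and p53 genes. With naive replicate 1, 2 or 3 left out, 0, 3 and 2 of them passed. The number was 2 without the constitutive line and 7 without the inducible line, and the highest adjusted p was 0.115.

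**Figure D4:**
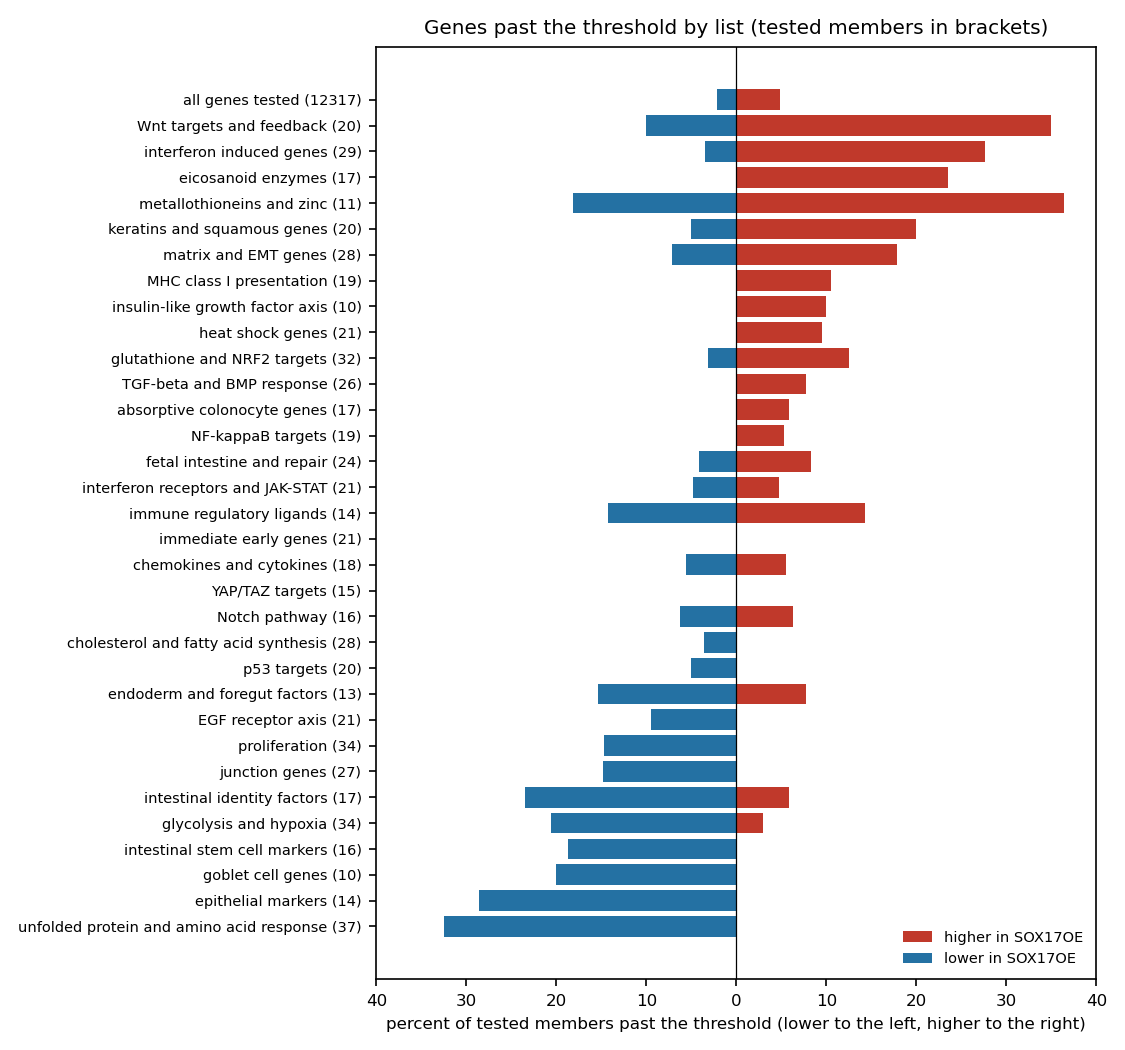
Percent of tested members of each gene list that rose (red, to the right) or fell (blue, to the left), for lists with at least 10 tested members, with the number tested in brackets. The top bar gives all 12317 genes, of which 4.82% rose and 2.19% fell. Metallothioneins and zinc, with 4 of 11, extend farthest to the right. Wnt targets, with 7 of 20, interferon induced genes, with 8 of 29, and eicosanoid enzymes, with 4 of 17, follow. The unfolded protein and amino acid response list, with 12 of 37, extends to the left.

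Several lipid mediator enzymes rose. Of 17 eicosanoid enzymes, 4 rose and none fell, beside 4.82% of all genes tested that rose and 2.19% that fell. Alox15, the lipoxygenase that oxidises arachidonic and linoleic acid, measured 0.216, 0.176 and 0.24 CPM in the naive libraries, 47.5 CPM in the constitutive line and 16.7 CPM in the inducible line (log2 fold change 7.22 ± 0.56 (SE), adjusted p = 0.00518). Its gap, from the highest naive library to the lower of the lines, was the widest above the naive libraries among tested genes of at least 5 CPM, at 4.54 on the log2(CPM + 0.5) scale. Hpgd, which inactivates prostaglandin E2, measured 63.4, 56.8 and 35.7 CPM in the naive libraries, 308 CPM in the constitutive line and 328 CPM in the inducible line (log2 fold change 2.62 ± 0.24 (SE), adjusted p = 0.00518), with the 2 lines close together. Cbr1, which reduces prostaglandin E2, went from 72.7, 78.8 and 83 CPM in naive organoids to 235 CPM (constitutive) and 155 CPM (inducible) (log2 fold change 1.32 ± 0.20 (SE), adjusted p = 0.0179). Pla2g4c, a phospholipase A2, went from 0.503, 0.484 and 0.336 CPM in naive organoids to 1.76 CPM (constitutive) and 3.4 CPM (inducible) (log2 2.54, adjusted p = 0.0309).

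Several metallothioneins, small proteins that bind zinc and copper, rose. Of 11 genes of metallothioneins and zinc transport, 4 rose and 2 fell, beside 4.82% of all genes tested that rose and 2.19% that fell. Mt4 measured 269, 229 and 85.4 CPM in the naive libraries, 3782 CPM in the constitutive line and 2787 CPM in the inducible line (log2 fold change 4.08 ± 0.49 (SE), adjusted p = 0.0165). Mt3 measured 7.69, 8.45 and 5.09 CPM in the naive libraries, 60.8 CPM in the constitutive line and 51.2 CPM in the inducible line (log2 fold change 2.99 ± 0.24 (SE), adjusted p = 0.00518), and Mt2 measured 612 and 525 CPM in the 2 lines against 208, 207 and 139 CPM in naive organoids (log2 fold change 1.62 ± 0.21 (SE), adjusted p = 0.0135). Naive replicate 3 was the lowest library for all of them. Metallothionein genes are close paralogs and could share reads. The zinc exporters split, as Slc30a2 rose from 19.8, 23.9 and 6.1 CPM in naive organoids to 105 CPM (constitutive) and 89.4 CPM (inducible) (log2 2.55, adjusted p = 0.046) and Slc30a4 fell from 112, 120.4 and 164 CPM in naive organoids to 64.9 CPM (constitutive) and 74.8 CPM (inducible) (log2 -0.92, adjusted p = 0.0445). Slc39a4, the zinc importer of enterocytes, fell from 25.4, 27.1 and 48.9 CPM in naive organoids to 7.96 CPM (constitutive) and 7.92 CPM (inducible) (log2 fold change -2.09 ± 0.33 (SE), adjusted p = 0.0213).

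Of 32 glutathione and NRF2 target genes, 4 rose and 1 fell, beside 4.82% of all genes tested that rose and 2.19% that fell. Gstm2, a glutathione transferase, measured 2.16, 3.12 and 2.64 CPM in the naive libraries, 50.5 CPM in the constitutive line and 25.4 CPM in the inducible line (log2 fold change 3.83 ± 0.33 (SE), adjusted p = 0.00518). Its paralogs Gstm1 (44.4 and 21.5 CPM in the 2 lines against 6.61, 7.35 and 9.84 CPM in naive organoids, log2 2.05, adjusted p = 0.0226) and Gstm4 (14.1 and 14.1 CPM in the 2 lines against 4.17, 4.4 and 6.1 CPM in naive organoids, log2 1.52, adjusted p = 0.0234) also rose, with the caveat of shared reads. Gsta1 of the alpha class fell from 5.17, 5.85 and 9.94 CPM in naive organoids to 1.52 CPM (constitutive) and 2.29 CPM (inducible) (log2 -1.87, adjusted p = 0.0439). Aldh3a1, an aldehyde dehydrogenase, rose from 0.287, 0.22 and 0.288 CPM in naive organoids to 12.2 CPM (constitutive) and 0.998 CPM (inducible) (log2 4.62, adjusted p = 0.0492). Of 28 cholesterol and fatty acid synthesis genes, none rose and 1 fell. Leaving out naive replicate 1, 2 or 3 left 6, 7 and 8 of the 15 named eicosanoid, zinc and glutathione genes past the threshold. Leaving out the constitutive line left 10, and leaving out the inducible line left 15. Adjusted p values reached 0.201. Alox15, Hpgd, Mt2, Mt3 and Gstm2 passed in each of the 5 fits. A move of the fold change by over 1.5 times was seen in 3 without the constitutive line and 1 without the inducible line.

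Of 37 genes tested in the unfolded protein and amino acid response, 12 fell, none rose and 25 did not pass, beside 2.19% of all genes tested that fell. In this list both lines lay below all naive libraries for 28 genes, beside 24.0% of all genes tested. The median log2 fold change was -0.65. Hspa5, the main chaperone of the endoplasmic reticulum, measured 2001, 1691 and 2715 CPM in the naive libraries, 902 CPM in the constitutive line and 584 CPM in the inducible line (log2 fold change -1.52 ± 0.27 (SE), adjusted p = 0.0282). The chaperones Hsp90b1 (868 and 803 CPM in the 2 lines against 1349, 1244 and 1489 CPM in naive organoids, log2 -0.70, adjusted p = 0.0348) and Hyou1 (123 and 109.8 CPM in the 2 lines against 179, 186 and 227 CPM in naive organoids, log2 -0.76, adjusted p = 0.0428) fell less. Creld2 (log2 -0.79, adjusted p = 0.037) and Herpud1 (log2 -0.96, adjusted p = 0.0295), also induced by protein folding stress, fell. Of the sensors, Eif2ak3, which encodes PERK, fell from 43.9, 42.7 and 67.8 CPM in naive organoids to 24.6 CPM (constitutive) and 16.4 CPM (inducible) (log2 -1.33, adjusted p = 0.0403) and Atf6 fell from 90.5, 84.5 and 109 CPM in naive organoids to 49 CPM (constitutive) and 60.9 CPM (inducible) (log2 -0.78, adjusted p = 0.0475). Ern1, which encodes IRE1, measured 55.2 and 38.2 CPM in the 2 lines against 27.9, 28.3 and 29.7 CPM in naive organoids (log2 0.70, adjusted p = 0.0661). Among the effectors, Ddit3, which encodes CHOP, fell from 101, 69.1 and 166 CPM in naive organoids to 30.8 CPM (constitutive) and 16.3 CPM (inducible) (log2 -2.25, adjusted p = 0.0451). Trib3, a pseudokinase induced by CHOP, fell from 116, 112 and 146 CPM in naive organoids to 24.4 CPM (constitutive) and 42.5 CPM (inducible) (log2 fold change -1.90 ± 0.27 (SE), adjusted p = 0.0164), and Chac1, which degrades glutathione, fell from 42, 41.1 and 53.1 CPM in naive organoids to 14.7 CPM (constitutive) and 16.8 CPM (inducible) (log2 fold change -1.53 ± 0.19 (SE), adjusted p = 0.0135). Slc7a5, a transporter of large neutral amino acids, fell from 144, 201 and 193 CPM in naive organoids to 53.7 CPM (constitutive) and 98 CPM (inducible) (log2 -1.24, adjusted p = 0.0472), and Cebpb fell from 28, 30.3 and 41.1 CPM in naive organoids to 11.7 CPM (constitutive) and 13.6 CPM (inducible) (log2 -1.39, adjusted p = 0.023). Atf4, the factor above many of these genes, measured 423 and 533 CPM in the 2 lines against 737, 715 and 742 CPM in naive organoids (log2 -0.61, adjusted p = 0.0534), and Asns, the asparagine synthetase, measured 138 and 435 CPM in the 2 lines against 462, 413 and 462 CPM in naive organoids, low in the constitutive line alone (log2 -0.64, adjusted p = 0.387). Naive replicate 3 was the highest naive library for 23 of the 37. In the list of 21 heat shock genes, Hspb1 (10.8 and 14.7 CPM in the 2 lines against 6.03, 4.31 and 5.86 CPM in naive organoids, log2 1.24, adjusted p = 0.0411) and Hspb8 (7.91 and 1.23 CPM in the 2 lines against 0.216, 0.264 and 0.288 CPM in naive organoids, log2 4.11, adjusted p = 0.0323), both small heat shock proteins, rose. Of the 14 named stress response genes that passed, 1, 5 and 1 still passed with naive replicate 1, 2 or 3 left out. Without the constitutive line 6 passed, and without the inducible line 12, with adjusted p values of up to 0.149 over these fits. Chac1 passed in each of the 5 fits. The number of these fold changes that moved by over 1.5 times was 1 without the constitutive line and 1 without the inducible line.

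**Figure D5:**
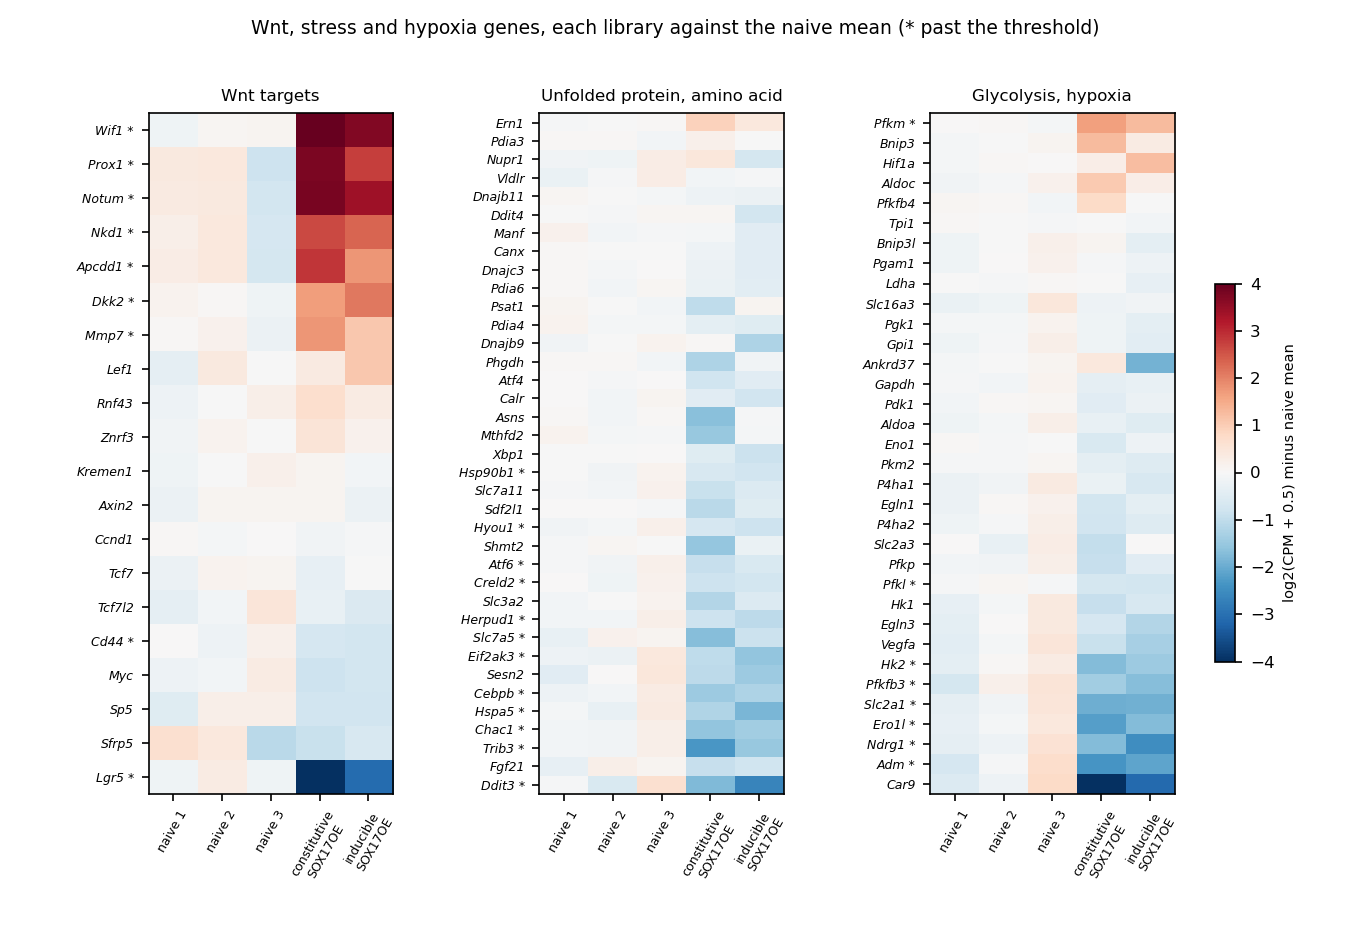
Each library's log2(CPM + 0.5) minus the mean of the 3 naive libraries, for tested genes of the Wnt, unfolded protein and amino acid, and glycolysis and hypoxia lists. Columns are the 5 libraries, rows are genes sorted by fold change, stars mark genes past the threshold, and the colour scale ends at 4 and -4. Both lines lie below all naive libraries for 28 of 37 genes in the middle panel and 21 of 34 in the right panel, and 28 of those 34 are highest among naive libraries in replicate 3. Over all genes tested, both lines lie below for 24.0%.

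Of 34 glycolysis and hypoxia genes, 7 fell, 1 rose and 26 did not pass, and both lines lay below all naive libraries for 21. Over all genes tested, 2.19% fell, 4.82% rose and 24.0% had both lines below. Slc2a1, the glucose transporter GLUT1, measured 279, 326 and 496 CPM in the naive libraries, 92.2 CPM in the constitutive line and 94.2 CPM in the inducible line (log2 fold change -1.98 ± 0.26 (SE), adjusted p = 0.0155). Ero1l, the oxidase that forms disulfides in the endoplasmic reticulum and is induced by hypoxia, measured 1415, 1697 and 2376 CPM in the naive libraries, 389.8 CPM in the constitutive line and 536 CPM in the inducible line (log2 fold change -1.98 ± 0.26 (SE), adjusted p = 0.0155). Hk2, the hexokinase that traps glucose, fell from 128, 174 and 207 CPM in naive organoids to 49.9 CPM (constitutive) and 60.2 CPM (inducible) (log2 fold change -1.62 ± 0.23 (SE), adjusted p = 0.0165). Ndrg1 fell from 791, 876 and 1514 CPM in naive organoids to 308 CPM (constitutive) and 183 CPM (inducible) (log2 -2.11, adjusted p = 0.0311), Adm, which encodes adrenomedullin, from 4.74, 7.57 and 13.1 CPM in naive organoids to 1.11 CPM (constitutive) and 1.41 CPM (inducible) (log2 -2.75, adjusted p = 0.0292), and Pfkfb3 from 44, 83.7 and 104 CPM in naive organoids to 27.2 CPM (constitutive) and 22 CPM (inducible) (log2 -1.65, adjusted p = 0.0476). The isoforms of phosphofructokinase moved apart, as the liver form Pfkl fell from 385, 419.7 and 388 CPM in naive organoids to 242 CPM (constitutive) and 241 CPM (inducible) (log2 -0.72, adjusted p = 0.0297) and the muscle form Pfkm rose from 9.41, 9.55 and 8.79 CPM in naive organoids to 29.8 CPM (constitutive) and 23.1 CPM (inducible) (log2 fold change 1.51 ± 0.19 (SE), adjusted p = 0.0136). Car9, the carbonic anhydrase that is a standard hypoxia marker, measured 65.2, 81.7 and 160.3 CPM in the naive libraries, 1.35 CPM in the constitutive line and 10.6 CPM in the inducible line and did not pass (log2 -4.10, adjusted p = 0.0584). Vegfa measured 159 and 118 CPM in the 2 lines against 223, 283 and 423 CPM in naive organoids (log2 -1.16, adjusted p = 0.0589), and Ldha measured 3643 and 2986 CPM in the 2 lines against 3689, 3606 and 3877 CPM in naive organoids (log2 -0.17, adjusted p = 0.433). Naive replicate 3 was the highest naive library for 28 of the 34 genes. The threshold was passed by 8 named glycolysis and hypoxia genes. With naive replicate 1, 2 or 3 left out, 4, 5 and 2 of them passed. The number was 5 without the constitutive line and 7 without the inducible line, and the highest adjusted p was 0.143. Slc2a1 and Ero1l passed in each of the 5 fits.

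Several proliferation genes fell. Of 34 tested, 5 fell, none rose, and both lines lay below all naive libraries for 21, with a median log2 fold change of -0.53. Over all genes tested, 2.19% fell, 4.82% rose and 24.0% had both lines below. Mki67, the antigen Ki-67 of cycling cells, measured 571, 545 and 539 CPM in the naive libraries, 273 CPM in the constitutive line and 332 CPM in the inducible line (log2 fold change -0.87 ± 0.15 (SE), adjusted p = 0.0257). Rrm2, a subunit of ribonucleotide reductase, measured 72.6 and 85.5 CPM in the 2 lines against 151, 156 and 150.3 CPM in naive organoids (log2 fold change -0.95 ± 0.15 (SE), adjusted p = 0.0206). The replicative helicase genes Mcm3 (92.1 and 116 CPM in the 2 lines against 199.7, 196 and 162 CPM in naive organoids, log2 -0.83, adjusted p = 0.0403) and Mcm7 (183 and 204 CPM in the 2 lines against 374, 329 and 272 CPM in naive organoids, log2 -0.75, adjusted p = 0.0496) fell, as did the kinetochore motor Cenpe (61.9 and 74.2 CPM in the 2 lines against 119, 118 and 112 CPM in naive organoids, log2 -0.77, adjusted p = 0.0319). Top2a measured 376 and 475 CPM in the 2 lines against 681, 641 and 555 CPM in naive organoids (log2 -0.55, adjusted p = 0.0819). In this list naive replicate 3 was the lowest naive library for 29 of 34 genes. Leaving out naive replicate 1, 2 or 3 left 0, 0 and 0 of the 5 named proliferation genes past the threshold. Leaving out the constitutive line left 0, and leaving out the inducible line left 5. Adjusted p values reached 0.153.

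Some of the largest changes lay outside these lists. Mgp, the matrix Gla protein that inhibits calcification, measured 4.81, 6.03 and 4.13 CPM in the naive libraries, 196 CPM in the constitutive line and 97.1 CPM in the inducible line (log2 fold change 4.87 ± 0.34 (SE), adjusted p = 0.00518). Akr1c18, the enzyme that inactivates progesterone, measured 0.503, 0.264 and 0.768 CPM in the naive libraries, 19.1 CPM in the constitutive line and 42.7 CPM in the inducible line (log2 fold change 5.91 ± 0.51 (SE), adjusted p = 0.00518), higher in the inducible line, with close paralogs that could share reads. Nsg2, a vesicle protein of neurons, measured 9.31 and 0.939 CPM in the 2 lines against 0, 0.176 and 0 CPM in naive organoids (log2 6.10, adjusted p = 0.0499). Among the falls, Ckb, the brain-type creatine kinase, measured 24.5, 28.9 and 38.7 CPM in the naive libraries, 3.4 CPM in the constitutive line and 3.17 CPM in the inducible line (log2 fold change -3.22 ± 0.27 (SE), adjusted p = 0.00518). Trf, which encodes transferrin, fell from 10.5, 15.9 and 10.3 CPM in naive organoids to 0 CPM (constitutive) and 0.998 CPM (inducible) (log2 -4.60, adjusted p = 0.0476), and the receptor kinase Fgfr4 fell from 2.51, 4.27 and 11.8 CPM in naive organoids to 0 CPM (constitutive) and 0.235 CPM (inducible) (log2 -5.65, adjusted p = 0.0428). Dhrs9, a retinol dehydrogenase, fell from 3.95, 2.64 and 8.83 CPM in naive organoids to 0.234 CPM (constitutive) and 0.411 CPM (inducible) (log2 -3.97, adjusted p = 0.0282). Mrc1, the mannose receptor, fell from 7.26, 4.31 and 9.22 CPM in naive organoids to 0.234 CPM (constitutive) and 0.939 CPM (inducible) (log2 -3.55, adjusted p = 0.0277), and Hif3a fell from 10.6, 23.8 and 37 CPM in naive organoids to 2.46 CPM (constitutive) and 3.17 CPM (inducible) (log2 -3.08, adjusted p = 0.0333). Wide gaps without passing were seen for Ddc, the decarboxylase that makes dopamine and serotonin, at 0 and 2.52 CPM in the 2 lines against 13.7, 13.9 and 16.3 CPM in naive organoids (log2 -3.53, adjusted p = 0.0978), and for Baiap2l2, a membrane-bending protein of gut and kidney epithelium, at 0 and 1.12 CPM in the 2 lines against 7.18, 8.8 and 8.5 CPM in naive organoids (log2 -3.86, adjusted p = 0.066). Of the tumour suppressors Apc and Trp53 neither passed: Apc measured 72.3 and 66.1 CPM in the 2 lines against 82.3, 79.8 and 86.7 CPM in naive organoids (log2 -0.26, adjusted p = 0.251) and Trp53 measured 2.69 and 2.99 CPM in the 2 lines against 2.08, 2.77 and 2.74 CPM in naive organoids (log2 0.16, adjusted p = 0.775). Of the 9 named genes outside the lists that passed, 4, 5 and 3 still passed with naive replicate 1, 2 or 3 left out. Without the constitutive line 5 passed, and without the inducible line 9, with adjusted p values of up to 0.231 over these fits. Mgp, Akr1c18 and Ckb passed in each of the 5 fits. The number of these fold changes that moved by over 1.5 times was 1 without naive replicate 2, 2 without naive replicate 3, 5 without the constitutive line and 5 without the inducible line.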

How the data were processed

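Poly(A) RNA libraries (NEBNext Ultra II Directional, per the labels) were processed with Bowtie and RSEM on mm9, per the submitters' processing notes. Tool versions, annotation and strand setting: not given in the sources used here. The table the authors deposited holds RSEM expected counts under 23224 names, and a spreadsheet turned 25 names into dates. No values were normalized by the authors, and between 22.4% and 28.4% of values per library were not whole. RSEM assigns reads shared by paralogs by estimate, which can move counts between them.

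Expected counts were rounded and the 5 libraries were fitted in edgeR 4.0.16 (R 4.3.3) with TMM scaling, filterByExpr and a robust quasi-likelihood fit with 2 groups, no covariate and 3 residual degrees of freedom. The biological coefficient of variation was 23.2%. Adjusted p-values are Benjamini-Hochberg over 12317 genes. The SE was obtained as log2 fold change over the root of the F statistic. Folds from 0 to 3 counts are given as bounds against 3 counts or as ratios with exact 95% intervals, which cover counting error only. All pairs of libraries differed by more than counting noise, so none was merged. A permutation test of 2 against 3 libraries cannot give a two-sided p under 0.10 and was not used.

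Of 918 genes in 42 lists, 909 matched a row, 10 of them under another symbol, and 660 were tested. The members and lists were chosen with earlier results of these data known. Genes are named by rule: 16 fixed genes, the 12 largest rises and 12 largest falls among non-overlapping genes past the threshold with at least 5 CPM in the higher group, the 8 widest gaps on each side, and the first 4 genes of each list by adjusted p. Others were named after their values were seen, and some genes the rule names are not reported here. Promoters are from RefSeq (GRCm38.p6), the most upstream start per symbol, which 8784 of the tested genes matched. Alternatives were DESeq2 1.42.0, limma 3.58.1, other scalings and filters, the other 6 libraries in the fit, and leaving out each library. The tests were checked on simulated data.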

Additional observations from a re-analysis of the deposited data

Results flagged for a closer look

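Sox17 was also present in libraries that this comparison does not use. In the 6 organoid libraries grown from tumours, 3 from C57Bl6 and 3 from RAG2KO recipients, for which the labels name no SOX17 construct, the level ranged from 12.4 to 74.2 CPM when all 11 libraries were scaled together. The naive libraries measured 0.0438 to 0.214 CPM on that scale, the inducible line 4.78 CPM and the constitutive line 72.9 CPM. It was singled out because each of the 6 lay above every naive library. The inducible line lay below all 6, and the constitutive line lay above 5 of them. On the same scale Lgr5 measured 8.21 to 64.0 CPM and Ifngr1 55.5 to 80.1 CPM in the 6 tumour-derived libraries, against 1.56 and 6.29 CPM and 25.8 and 29.7 CPM in the constitutive and inducible lines.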

How the results depend on the processing

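The main counts were 864 genes past the threshold, 594 higher and 270 lower, and 113 genes of the lists. DESeq2 size factors, upper quartile scaling, library totals, the stricter filter, limma voom and the non-robust fit kept these totals within 1.5 times (800 to 1039). With no filter on low counts 415 genes were lower. The DESeq2 Wald test called 2266 genes (1225 higher, 1041 lower, 246 of the lists). All 11 libraries in 4 groups gave 1443 (896 higher, 547 lower), and in 5 groups, with the 2 lines as separate groups, 1741 (929 higher, 812 lower, 178 of the lists). The share of calls that were higher was 68.8% in the main fit, 54.1% in the Wald test and 53.4% with 5 groups. Leaving out 1 library at a time gave 73 to 2605 genes, 50 to 1471 higher and 20 to 1134 lower, and 16 to 281 of the lists: 73 without naive replicate 1, 208 without naive replicate 2, 90 without naive replicate 3, 443 without the constitutive line and 2605 without the inducible line. Without a line, the lone remaining library was assumed to vary like the naive ones. The SOX17OE libraries in the fit lay above all naive libraries in it for 3414 to 5024 genes and below for 3145 to 4807, the upper ends coming from fits with a single line. All 864 genes kept their direction wherever they were tested, and no named gene past the threshold reversed. Their lack of overlap in the main fit left little room for a reversal, so this is a description only. Cd274, which did not pass (log2 fold change 0.01), changed sign between settings. Examples are -0.0019 with DESeq2 size factors, -0.04 with library totals and -0.17 without naive replicate 1. Of 102 named genes past the threshold, 19, 41, 24, 68 and 98 passed in the 5 fits. At an unadjusted p under 0.05 there were 3724 genes. No paired analysis was possible because the SOX17OE libraries carry no replicate number in the labels. Depth limits the low genes: 3 counts were worth 0.132 to 0.216 CPM, and a lower level rests on 1 or 2 counts.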
